A study of Mus musculus with 3 samples.

Results

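The scavenger and mannose receptors described here are 9 genes, Stab1, Msr1, Marco, Colec12, Scarb1, Cd36, Mrc1, Cd163 and Olr1, chosen by gene name in the annotation GENCODE M21. They are 9 of the 22028 protein-coding genes and of the 55536 annotated genes measured. RNA from the chromatin fraction, which holds transcripts still attached to their gene, was sequenced after depletion of ribosomal RNA from macrophages grown out of the bone marrow of C57BL/6J mice. All 3 libraries share 1 treatment: 100 ng/ml Lipid A, the membrane anchor of bacterial lipopolysaccharide that TLR4 recognises, for 12 h, a washout of 12 h, and 100 ng/ml Lipid A again for 25 min. No genetic change is named in the labels, which list the same donor identifier for all 3 and give neither sex nor age. Untreated and once-treated cells were not analysed here, so the values are levels within this 1 state. The amounts of RNA that went into replicates 1, 2 and 3 were 1 µg, 250 ng and 500 ng.

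Scavenger receptors are surface proteins of macrophages, endothelium and a few other cell types that bind modified lipoproteins, polyanions, bacterial surfaces and dying cells and carry them into the cell. They are grouped in classes by their domains and not by descent, and several act together with TLR4 or TLR2 in handling bacteria. Lipid A, the agent given to these cells, is itself known as a ligand of Msr1. The mannose receptor binds sugars of microbes and of the body's own glycoproteins and is widely used as a marker of alternatively activated macrophages.

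Expected counts over annotated genes came to between 13502401 and 17848798 per library. The ribosomal RNA locus still held 11.1%, 31.8% and 24.8% of them in replicates 1, 2 and 3. All 15 macrophage markers tested for, such as Adgre1 (F4/80) at a TPM of 298 ± 52.9 and Csf1r at 149 ± 28.9, reached the detection threshold used here. TPM counts transcripts per length on a scale whose total is equal across libraries, and a gene counted as detected where all 3 libraries had a TPM of 1 or more. Errors are SDs over the 3 libraries (n = 3). The labels do not say that the replicates came from separate animals, so these SDs may be technical in part. In bulk RNA, fewer cells of a type and less RNA per cell cannot be told apart.

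Of the 9 receptors, 7 were detected, against 44.0% of all protein-coding genes. The median of log2(TPM + 1) over all 9 members was 3.82, 4.33 and 4.20 in replicates 1, 2 and 3. Over the 9689 detected protein-coding genes it was 3.56 ± 0.03 and over all 22028 it was 0.61 ± 0.03. The receptors were far apart in level. Stab1 stood among the most abundant protein-coding genes, 5 members were above the median of the detected genes in every library, and Cd163 and Olr1 were close to the counting limit. Protein-coding genes held 29.9%, 26.4% and 25.4% of the TPM over annotated genes in replicates 1, 2 and 3. The receptors were not ranked among the other annotated genes.

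**Figure D1:**
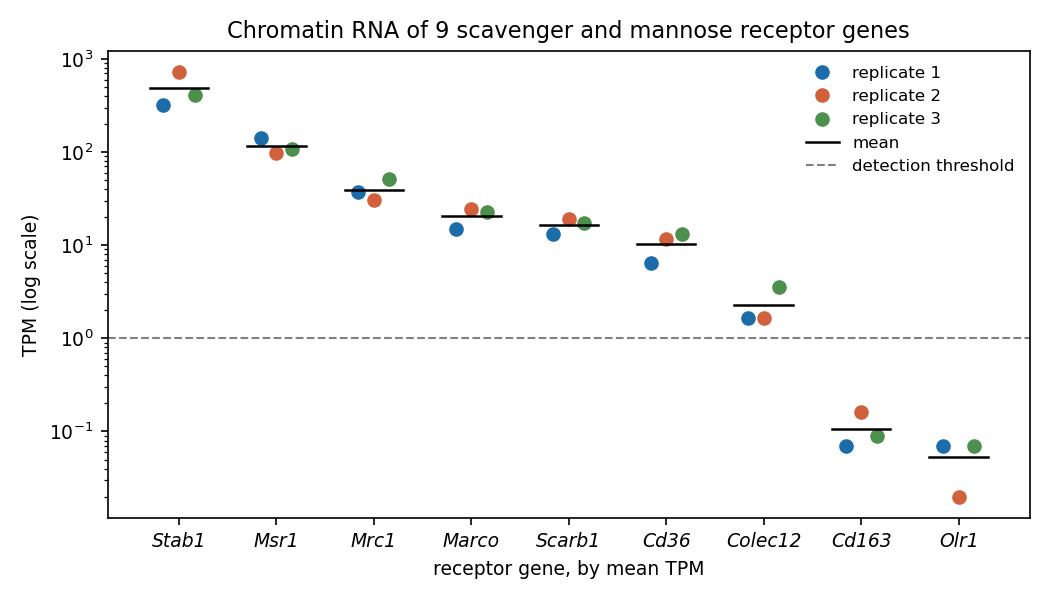
Level of each receptor gene in each of the 3 libraries, in TPM on a log scale, with the mean as a bar and the detection threshold of 1 TPM as a dashed line. Stab1 lies highest at 323 to 724 TPM, 6 further genes lie above the line in all libraries, and Cd163 and Olr1 lie at or below 0.16 TPM in all of them.

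Stab1 encodes stabilin-1, a very large class H receptor that clears modified lipoproteins, matrix fragments and the secreted protein SPARC. The gene (ENSMUSG00000042286.13, GRCm38 chr14:31139013-31168641, minus strand) packs 69 exons into 29629 bp. Its TPM in replicates 1, 2 and 3 was 323, 724 and 413, with a mean of 487 ± 210. Replicate 2 was above the other libraries, and the lowest library was still above every value of every other receptor. Among detected protein-coding genes its percentile was 99.1, 99.9 and 99.7. Stab2, the other stabilin, was detected at 13.2 ± 7.02 TPM.

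Among the class A receptors, which carry a collagen-like stalk, Msr1 was highest. Msr1 encodes scavenger receptor A, which takes up acetylated lipoprotein and binds Lipid A. It lies at chr8:39581685-39642673 on the minus strand (ENSMUSG00000025044.16). Its TPM was 141, 97.9 and 107 in replicates 1, 2 and 3 (115 ± 22.5), so that replicate 1 was highest for this gene and not lowest as for Stab1. Marco encodes a related receptor for bacteria and particles (ENSMUSG00000026390.7, chr1:120474538-120505024, minus strand). Its TPM was 15, 24.2 and 22.9 (20.7 ± 4.94). Replicate 1 was below the other libraries, and no Marco value came near those of Msr1.

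The third class A member, Colec12, encodes the scavenger receptor CL-P1, a membrane collectin known mainly from endothelium (ENSMUSG00000036103.9, chromosome 18). Its TPM was 1.65, 1.66 and 3.57 (2.29 ± 1.11), just above the detection threshold in replicates 1 and 2. These values rest on 38, 34 and 54 expected counts. As CPM, counts scaled to the library's total with no length, they are 2.81, 1.90 and 3.03, with exact 95% Poisson intervals of 1.99 to 3.86, 1.32 to 2.66 and 2.28 to 3.95, which overlap. The higher TPM of replicate 3 goes with a shorter effective length given to the gene in that table, which was 1728, 1267 and 876 bases in replicates 1, 2 and 3. The other class A genes Scara3 and Scara5 had no expected count in any library, but the second quantification, described further on, detected Scara5 at a mean of 2.76 TPM.

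The class B receptors span the membrane at both ends and pass lipid into the cell. Scarb1 encodes SR-BI, the receptor through which cells exchange cholesterol with high-density lipoprotein (ENSMUSG00000037936.15, chr5:125277087-125341094, minus strand). Its TPM was 13.1, 19.1 and 17.4 (16.5 ± 3.11). Cd36 encodes a receptor for long-chain fatty acids and oxidised lipoprotein that works with TLR2 and TLR6 (ENSMUSG00000002944.15, chr5:17781690-17888801, minus strand). Its TPM was 6.41, 11.8 and 13.1 (10.4 ± 3.54), with replicate 1 again below the others. Scarb2, the lysosomal member of the class, was detected at 13.8 ± 0.365 TPM with a much smaller spread than either.

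Mrc1 encodes the mannose receptor CD206, with a row of C-type lectin domains (ENSMUSG00000026712.3, chr2:14229392-14332057, plus strand). Its TPM was 37.6, 30.2 and 50.9 (39.6 ± 10.5). Replicate 3 was highest and replicate 2, the highest library of Stab1, was lowest. Of the other 3 genes of the mannose receptor family, Pla2r1, a receptor for secreted phospholipases, was detected at 5.52 ± 2.57 TPM. Ly75 and Mrc2 did not reach the threshold in all libraries.

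Intron 5 of Mrc1 holds the hairpin of Mir511 at chr2:14261003-14261081, a microRNA known to be made together with the receptor. The mature arm lies at chr2:14261051-14261072 on the plus strand. It is shown from RefSeq (GRCm38.p6) because these libraries include nuclear RNA from the intron around it, with capitals for the seed, bases 2 to 8.
mmu-miR-511-3p: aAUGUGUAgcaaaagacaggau
The gene table lists Mir511 at 0 counts in all libraries. The second quantification gives it 55, 44 and 85 estimated counts in replicates 1, 2 and 3, or 199, 99.4 and 174 TPM. Scaled to TPM it was lowest in replicate 2, as Mrc1 was, and highest in replicate 1, where Mrc1 was not. Its unscaled counts were highest in replicate 3, as Mrc1 was, in libraries of 20661903, 32013772 and 30098148 estimated counts. Which library was highest thus depended on the scaling. The hairpin has 79 bases and, per the labels, the libraries were built from longer fragments. The counts of Mir511 therefore cannot be told apart from unspliced Mrc1 RNA.

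Cd163 encodes the scavenger receptor for haemoglobin bound to haptoglobin (ENSMUSG00000008845.9, chr6:124304656-124330527, plus strand). It had 4, 11 and 6 expected counts, or 0.296, 0.616 and 0.337 CPM, with exact 95% Poisson intervals of 0.0807 to 0.759, 0.308 to 1.10 and 0.124 to 0.733. Its TPM was 0.07, 0.16 and 0.09. Olr1 encodes LOX-1, a lectin-like receptor for oxidised lipoprotein best known from endothelium (ENSMUSG00000030162.14, chr6:129485244-129507165, minus strand). It had 3, 1 and 4 expected counts and a TPM of 0.07, 0.02 and 0.07. A count of 0 would allow up to 3 counts, 0.222, 0.168 and 0.168 CPM. Olr1, at 0.222, 0.056 and 0.224 CPM, was at that limit in replicate 1, below it in replicate 2 and 1 count above it in replicate 3. Limits and intervals of this kind hold for counting error alone, because without molecular identifiers several reads can stem from 1 molecule.

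Placed in order of mean TPM, the members formed 8 neighbouring pairs, which were compared within each library on the log2(TPM + 1) scale. The order came from the same values, so each mean difference was positive in advance and the test is no evidence for its direction. Stab1 was above Msr1 by 2.00 ± 0.84, Msr1 above Mrc1 by 1.53 ± 0.43, and Mrc1 above Marco by 0.90 ± 0.52. Marco was above Scarb1 by only 0.30 ± 0.10, in 3 of 3 libraries, and the ranges of the pair overlapped. Scarb1 was above Cd36 by 0.65 ± 0.27, Cd36 above Colec12 by 1.79 ± 0.42 and Colec12 above Cd163 by 1.52 ± 0.47. For these 7 pairs the difference had the same sign in all libraries and was larger than its SD, with p = 0.25 in an exact two-sided sign-flip test (0.286 after Benjamini-Hochberg adjustment over the 8), the smallest p that 3 libraries allow. Cd163 and Olr1 did not differ beyond their spread, at 0.07 ± 0.10 (exact p = 0.5).

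The size of the lead of Stab1 depended on the library and on how length was handled. Stab1 over Msr1 was 2.30, 7.39 and 3.87 in TPM in replicates 1, 2 and 3. With expected counts divided by 1 fixed length per gene, that of its longest coding transcript, it was 1.31, 4.16 and 2.11, a smaller lead of the same sign in each library. The position of Mrc1 above Marco rested on the gene table. Mrc1 over Marco was 2.50, 1.25 and 2.23 there and 1.21, 0.642 and 0.905 in the second quantification, where Marco was the higher of the pair in replicates 2 and 3.

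The libraries did not move the receptors in 1 direction. Of the 7 detected members, 5 were lowest in replicate 1 and 2 in replicate 2, while 1, 3 and 3 were highest in replicates 1, 2 and 3. Over all 9689 detected genes 34.1%, 31.2% and 34.7% were lowest and 41.6%, 38.5% and 19.9% highest in replicates 1, 2 and 3. The ratio of the highest to the lowest library was 2.24 for Stab1, 2.16 for Colec12, 2.04 for Cd36, 1.69 for Mrc1, 1.61 for Marco, 1.46 for Scarb1 and 1.44 for Msr1. Its median over detected genes was 1.37, and 5.29% of them had a ratio of at least that of Stab1. In the gene table Stab1, Marco and Scarb1 each fell in the order replicate 2, replicate 3, replicate 1 from high to low. How many of all detected genes had this order is not given here, so it is not read as particular to these receptors. The share of the ribosomal RNA locus had the same order and the amount of starting RNA the reverse one. The part of either in these levels was not tested. In the second quantification the order held for Scarb1 (25.2, 29.2 and 29.1 TPM in replicates 1, 2 and 3), but not for Stab1 (326, 452 and 310 TPM) or Marco (33.3, 42.7 and 52.2 TPM).

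In a count model fitted to all 3 libraries with edgeR, Stab1 had the widest spread of the detected members, which did not hold in every alternative. The biological coefficient of variation (BCV) from edgeR, fitted over 14193 genes, was 0.254 for Stab1, above that of 87.9% of genes, and between 0.194 for Msr1 and 0.229 for Colec12 in the other 6 detected members. The median over all genes was 0.203. With no shrinkage of single genes towards the rest, Stab1 stood at 0.375 against a median of 0.136, and the values of the others ran from 0.143 for Colec12 to 0.287 for Marco, all above that median. With counts scaled by TMM, an edgeR factor for library composition, the highest Stab1 library was 2.10 times the lowest. With DESeq2, another count model, Colec12 had the wider spread, at 0.294 against 0.229 for Stab1. With replicate 1, 2 or 3 left out, edgeR gave 0.210, 0.244 and 0.278 for Colec12. For Stab1 it gave 0.180, 0.193 and 0.247, against medians over all genes of 0.165, 0.207 and 0.240. With replicate 1 left out, Stab1 was also below Mrc1 (0.187). With replicate 2 left out, Stab1 was also below Marco (0.218), Cd36 (0.209) and the median over all genes.

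The second quantification, which assigned reads to transcripts through an index, gave more counts to most genes, with a median ratio to the gene table of 1.53, 1.74 and 1.61 over detected protein-coding genes. Stab1 (1.52, 1.62 and 1.54), Msr1 (1.27, 1.47 and 1.36) and Mrc1 (1.42, 1.64 and 1.49) were near or below that median. Marco, Cd36 and Scarb1 were above it in every library, at 1.84 to 2.72. The receptors with the lowest counts departed furthest: Colec12 had 542, 589 and 685 counts in the second quantification, 14.3, 17.3 and 12.7 times as many, and Cd163 had 33, 90 and 72. Olr1 went from 3, 1 and 4 counts to 55, 83 and 127. Both Cd163 and Olr1 stayed below a TPM of 1 in at least 1 library there, so that 7 members were detected in either table. By posterior mean TPM, which the gene table also carries, Olr1 was at 1.33, 1.37 and 1.23 and the count of detected members was 8. The share of all genes detected in the second quantification or by posterior mean TPM is not given here. The bounds given with the posterior means of Olr1 ran from 0.242 to 2.78, and their level is not stated.

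**Figure D2:**
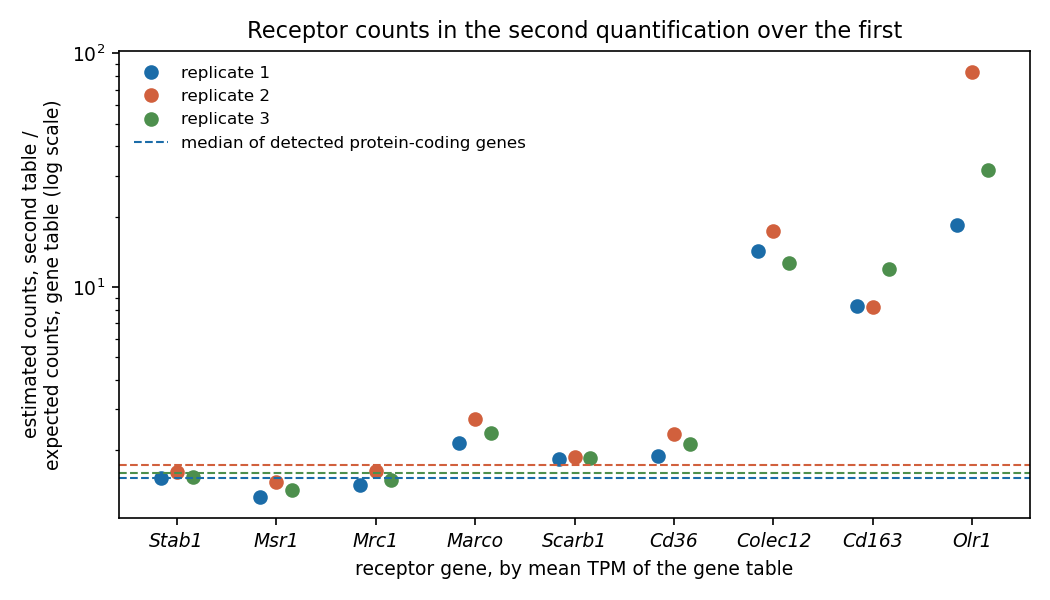
Estimated counts of the second quantification divided by expected counts of the gene table for each receptor and library, on a log scale, with dashed lines at the median over detected protein-coding genes in each library (1.53, 1.74 and 1.61). The 6 most abundant receptors lie between 1.27 and 2.72, and Colec12, Cd163 and Olr1 lie at 8.18 or more in every library.

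Chromatin RNA is rich in unfinished transcripts, and the receptors differed in how much of their signal fell on transcripts annotated as keeping an intron. In the first transcript table, the share of a gene's transcript TPM in class retained_intron was 76.7% ± 3.28 for Scarb1, 51.9% ± 4.41 for Stab1, 37.9% ± 6.33 for Msr1 and 9.69% ± 1.44 for Mrc1. It was 79.7% ± 9.54 for Colec12, on few counts. Marco and Cd36 have no such transcript in the annotation, so that a share of 0 says nothing of their introns. Over the 6232 detected genes with both classes the median share was 45.5%, 46.7% and 41.8% in replicates 1, 2 and 3. Scarb1 was at percentile 92.3, 87.6 and 94.0 of these genes and Mrc1 at 7.14, 4.88 and 6.80, while Stab1 and Msr1 lay nearer the middle. In the second table the share of Scarb1 was 53.9%, 45.9% and 48.4%, at percentile 64.1, 51.4 and 58.5, so its high position was that of the first table alone. Mrc1 stayed low there, at percentile 3.84, 2.18 and 3.24, and Msr1 was lower than in the first table, at 21.7, 14.1 and 15.1. Stab1 held 62.4%, 55.7% and 57.7% in the second table, above Scarb1 in every library, at percentile 75.9, 67.1 and 72. Colec12 fell to 30.2% ± 11.1 there, at percentile 19.7, 20.2 and 50.5.

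**Figure D3:**
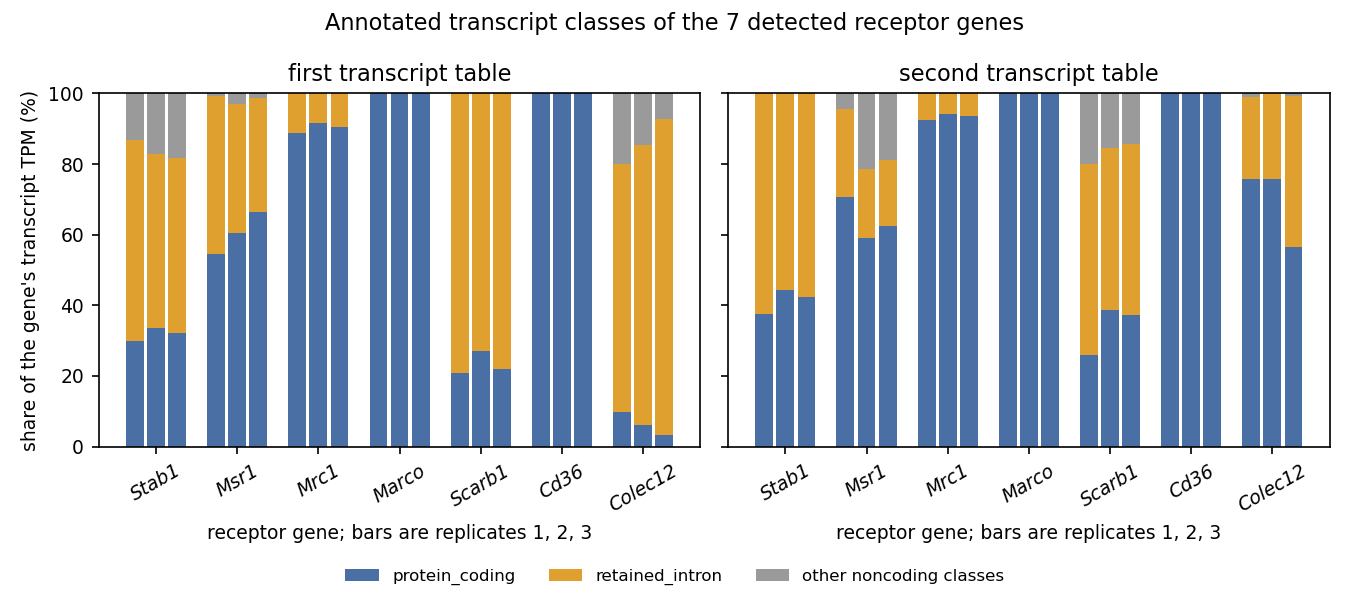
Share of each detected receptor's transcript TPM in annotated transcript classes, 3 bars per gene for replicates 1, 2 and 3, in the first (left) and second (right) transcript table. Retained-intron transcripts take 73.0% to 79.1% of Scarb1 and 8.29% to 11.2% of Mrc1 on the left, and Colec12 changes most between the tables.

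Stab1 has 13 annotated transcripts, 9 of them of class retained_intron. The full-length coding transcript Stab1-201, of 2571 codons, had a TPM of 94.6, 201 and 125, a share of 29.1% ± 1.18. By expected counts, which favour long transcripts, noncoding transcripts held only 29.4% ± 3.29 of Stab1, against 68.1% ± 1.90 by TPM. A single short transcript shows the gap: Stab1-202, of 242 bases, took 31, 69 and 54 counts but 13.0%, 17.0% and 18.3% of the gene's TPM, and the second table lists it at 0. Other transcripts above 10% of the gene in either table were the retained-intron transcripts Stab1-206, Stab1-205 and Stab1-213. Stab1-206 passed in the first table, at 48.8 ± 17.6 TPM. Stab1-205 and Stab1-213 passed in the second table alone, at 52.4 ± 8.62 and 41 ± 4.5 TPM. In the first table they had 20.4 ± 10.7 and 29.1 ± 13.0 TPM. The gene Nt5dc2 overlaps Stab1 by 112 bp on the other strand, and its 45, 117 and 112 counts are few beside the 14728, 35278 and 22871 of Stab1.

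For 11 introns of Stab1 an annotated transcript keeps the whole intron, and the TPM of such transcripts was taken as a share of that of all transcripts running across it. All 11 begin with GT, end with AG and are short, from 71 to 304 bases. Intron 64, between exons 64 and 65, had the highest mean share, with 38.1%, 42.0% and 40.4% in replicates 1, 2 and 3. Intron 53 followed at 40.2%, 32.6% and 31.8%, above intron 64 in replicate 1, and intron 61 was lowest at 6.33%, 11.5% and 9.28%. In the second table intron 64 stood at 28.9% ± 0.385, intron 53 at 26.3% ± 2.51 and intron 61 at 7.97%, 10.6% and 11.5%. They are printed whole to show the highest and the lowest, with the intron in capitals and 15 exon bases on either side in lower case, on the minus strand at GRCm38 chr14:31140061-31140162, chr14:31143000-31143132 and chr14:31140706-31140823.
Stab1 intron 64: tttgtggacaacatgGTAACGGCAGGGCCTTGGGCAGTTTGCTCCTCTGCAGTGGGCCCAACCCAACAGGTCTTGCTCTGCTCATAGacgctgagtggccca
Stab1 intron 53: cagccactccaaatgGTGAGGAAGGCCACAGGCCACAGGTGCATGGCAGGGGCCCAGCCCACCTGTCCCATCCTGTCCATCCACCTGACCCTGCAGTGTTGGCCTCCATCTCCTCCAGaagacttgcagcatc
Stab1 intron 61: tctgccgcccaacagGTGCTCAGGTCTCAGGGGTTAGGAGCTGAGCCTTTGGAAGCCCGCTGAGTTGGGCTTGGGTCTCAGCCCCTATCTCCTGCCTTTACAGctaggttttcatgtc
Of the 11 introns, 9 are kept by the same transcript, Stab1-208, and their shares are not independent of each other. In 9 of the 11 the share was highest in replicate 1.

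Msr1 and Mrc1 each have 1 intron that an annotated transcript keeps whole. Msr1-204, which keeps intron 2 at chr8:39631395-39632719, had 44.8%, 36.5% and 32.4% of the TPM across that intron in replicates 1, 2 and 3, and 21% ± 3.29 in the second table. Mrc1-202, which keeps the last intron, 29, at chr2:14329925-14330921, had 11.2%, 8.29% and 9.62%, and 6.50% ± 0.850 in the second table. The lowest Msr1 value was above the highest Mrc1 value in both tables. Their intron ends are shown for comparison with those of Stab1, 15 exon bases in lower case and 20 intron bases in capitals, 5′ to 3′ on the strand of the gene.
Msr1 intron 2 start: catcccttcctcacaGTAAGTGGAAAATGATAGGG
Msr1 intron 2 end: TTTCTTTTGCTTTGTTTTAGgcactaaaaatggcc
Mrc1 intron 29 start: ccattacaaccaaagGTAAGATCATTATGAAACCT
Mrc1 intron 29 end: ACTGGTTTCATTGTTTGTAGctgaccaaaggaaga
These introns are 1325 and 997 bases long, with GC contents of 38.9% and 34.7%. In Stab1 introns 64, 53 and 61 it was 59.7%, 65.0% and 59.1%. Introns 64 and 61, the highest and lowest Stab1 introns by mean share, were thus close in GC content. Of the 13 introns of the 3 genes, 11 had their highest share in replicate 1. In that library the level of Stab1 was lowest, that of Msr1 highest and that of Mrc1 in between. The matching share over all introns is not given here, so these counts are not read as particular to the 3 genes.

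**Figure D4:**
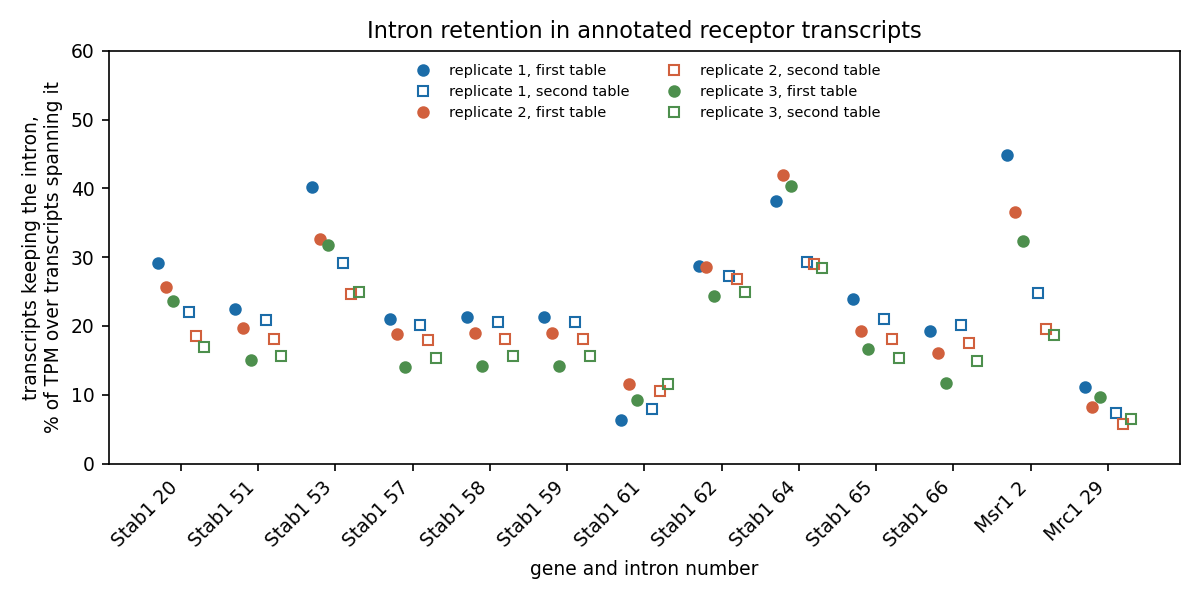
Share of TPM in transcripts that keep an intron, among annotated transcripts running across it, for 11 introns of Stab1 and 1 each of Msr1 and Mrc1, in percent. Filled circles are the first and open squares the second transcript table, 1 per library, and the lowest introns are Stab1 61 and Mrc1 29, both below 12%.

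Msr1 makes 2 forms of the receptor. Type I, with a cysteine-rich SRCR domain at its end, is encoded by Msr1-201 with 458 codons, and type II, which lacks that domain, by Msr1-202 with 354 codons. They share their first 1054 coding bases, after which type I has 320 of its own and type II has 8. The point where they part is printed with the last 15 shared bases in lower case and each form's own bases in capitals, up to 51 of them.
Msr1-201: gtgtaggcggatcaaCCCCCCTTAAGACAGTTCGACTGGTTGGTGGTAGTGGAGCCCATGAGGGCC
Msr1-202: gtgtaggcggatcaaGATCAGTA
The type II transcript had a TPM of 65.2, 39.4 and 55.5 and the type I transcript 10.3, 19.8 and 14.8 in replicates 1, 2 and 3. Type II was the higher in every library of the first table, with no overlap. In the second table the pair stood at 41.1 ± 12.7 and 29.5 ± 2.47, and in replicate 2 at 28.5 and 26.7, nearly level. Msr1-202 is 3636 bases long, Msr1-201 1424, and most bases of the former lie outside the coding sequence. The second table also gave 18.5% ± 11.1 of the gene to the partial coding transcript Msr1-203, which the first table held at 0.445% ± 0.422, and 14.8% ± 9.11 to the noncoding Msr1-205.

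Scarb1 has a similar pair. SR-BI is encoded by Scarb1-201 with 509 codons and SR-BII, with another cytoplasmic tail, by Scarb1-202 with 506. They share 1402 coding bases and then have 125 and 116 of their own, of which 51 follow the last 15 shared ones.
Scarb1-201: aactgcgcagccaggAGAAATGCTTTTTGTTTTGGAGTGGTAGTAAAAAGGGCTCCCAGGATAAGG
Scarb1-202: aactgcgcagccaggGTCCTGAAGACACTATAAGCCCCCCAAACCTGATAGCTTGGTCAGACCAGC
Scarb1-201 had a TPM of 2.74, 4.08 and 2.78. Scarb1-202 was listed at 0 in replicates 1 and 3 and at 1.09 in replicate 2. The second table gave Scarb1-202 a TPM of 0.748, 1.35 and 1.11, below Scarb1-201 (2.36, 3.23 and 2.00) in every library. The larger part of Scarb1 lay in the retained-intron transcripts Scarb1-209 (3.93, 4.50 and 6.56 TPM), Scarb1-207 (3.76 ± 0.857 TPM), Scarb1-211 (2.11 ± 0.901 TPM) and Scarb1-203 (1.77 ± 0.223 TPM). The second table gave most to the partial coding transcript Scarb1-208, 5.78 ± 2.58 TPM, which the first table held at 0.340 ± 0.589. An unnamed gene of the annotation's class TEC, Gm42633, lies on the same strand over 2764 bp of Scarb1 with 58, 103 and 57 counts, so that reads there could have gone to either.

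All 2 annotated transcripts of Marco and all 6 of Cd36 are coding, so that a coding transcript had to lead there. Mrc1 has 1 coding and 1 retained-intron transcript, and the coding one led in both tables. Marco-201, of 518 codons, held 90.4% ± 9.01 of Marco in the first table and 65.3% ± 2.34 in the second, and the rest went to the partial transcript Marco-202. Cd36 was divided among the full-length Cd36-201 (28.4% ± 17.2) and Cd36-206 (18.6% ± 4.99), both of 472 codons, and the partial transcript Cd36-205 (41.5% ± 12.7). The share of Cd36-201 was 48.2% in replicate 1 and 17.4% and 19.6% in replicates 2 and 3, with 116, 91 and 123 counts, while Cd36-205 took 13, 34 and 57 counts. In the second table Cd36-201 held 17.3%, 2.86% and 3.97%, Cd36-206 held 23.6% ± 7.06 and Cd36-205 held 61.1% ± 4.64. Mrc1-201, of 1456 codons, held 90.3% ± 1.44 of Mrc1 and 93.5% ± 0.850 in the second table. For Colec12 the tables disagreed: the retained-intron transcript Colec12-203 led the first with 78.3% ± 7.52 on 7, 9 and 23 counts, and the full-length Colec12-204 led the second with 69.3% ± 11.2.

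Lists of genes that work with these receptors were chosen with earlier results known, so their counts are not read as a result. Beside them, 44.0% of all protein-coding genes were detected. Of 13 partners and signalling genes 12 were, led by the kinases Syk (246 ± 35.7 TPM) and Lyn (149 ± 50.9 TPM), the exchange factor Vav1 (143 ± 12.6 TPM) and the Fc receptor chain Fcer1g (114 ± 25.4 TPM). Of 14 genes that handle lipid after uptake 12 were detected, with the fatty acid carrier Fabp5 at 149 ± 33.8 TPM, the lysosomal sterol carrier Npc2 at 115 ± 26.8, the cholesterol exporter Abca1 at 110 ± 15.6 and Soat1, the enzyme that stores cholesterol as esters, at 102 ± 5.82. Of 9 haem and iron genes, the pathway that Cd163 feeds, 8 were detected, among them both ferritin chains Fth1 (941 ± 202 TPM) and Ftl1 (378 ± 26.9 TPM). Cd163 itself had at most 11 counts in a library.

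Scavenger receptors of other classes were detected in 6 of 9 cases, beside 44.0% of all protein-coding genes. Lrp1, a large receptor for lipoproteins and protease complexes, had 267 ± 54.9 TPM, Cxcl16 (SR-PSOX) 44.1 ± 13.0, Cd68 35.4 ± 10.1 and Cd44 19.9 ± 1.28. Lrp1 was thus the only one of these 4 above the mean of Msr1. Among 7 genes with SRCR domains, Cd5l, a secreted macrophage protein, was at 22.3 ± 3.80 TPM and Cd5 at 1.89 ± 0.520, and the others, Cd163 among them, were not detected. Of 12 transcription factors known to act on these receptors 10 were detected, led by Nfe2l2 (166 ± 59.1 TPM), which controls Marco and Cd36, and Stat6 (73.4 ± 7.06 TPM), which acts in the alternative activation programme. Pparg, known for its control of Cd36, was detected at 4.37 ± 0.159 TPM.

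Few of the other genes used with Mrc1 as markers were detected in the gene table, where 44.0% of all protein-coding genes were. Of 9 alternative activation markers only the lectin Clec10a passed in the gene table, at 5.66 ± 0.759 TPM, against 39.6 ± 10.5 for Mrc1. Arg1 was at 1.03 ± 0.470 TPM and below the threshold in at least 1 library, and Retnla, Ccl17 and Ccl24 were listed at 0 counts in all libraries. The second quantification detected 3 of the 9, adding Ccl24 at a mean of 5.59 TPM, beside 5.77 for Clec10a, and Arg1 at 2.51. The share of all genes it detected is not given here.

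Several of the receptors are also made by other cells, and their markers were read beside them. Of all protein-coding genes, 44.0% were detected in the gene table. Of 10 endothelial markers, which bear on Stab1, Mrc1, Colec12 and Olr1, 3 were detected, Vwf at 28.0 ± 5.56 TPM, Kdr at 4.74 ± 4.11 and Pecam1 at 1.61 ± 0.526, and Emcn and Cldn5 were at 0 counts. Their summed TPM was 42.9, 25.4 and 35.1 in replicates 1, 2 and 3, lowest in replicate 2, where Stab1 was highest and Mrc1 lowest, and their part in either level was not tested. Of 5 platelet and megakaryocyte markers, which bear on Cd36, Itga2b (1.80 ± 0.448 TPM) and Gp9 (1.67 ± 0.609 TPM) were detected and Gp1bb was at 0. Their summed TPM was 3.82, 9.85 and 7.97, lowest in replicate 1 as was Cd36, and their part in its level was not tested. No adipocyte marker of 6 was detected in the gene table, and their summed TPM there was at most 0.1. Of 4 markers of liver macrophages, cells known for Cd163 and Marco, only Cd5l was detected there, with Clec4f and Timd4 at 0, and of 5 markers of alveolar macrophages none was. In the gene table none of 7 dendritic cell, 8 neutrophil and 6 fibroblast markers was detected, and of 7 T and B cell markers only Cd4 was, at 7.90 ± 1.89 TPM. The second quantification detected 9 further markers of other cell types: the adipocyte marker Retn at a mean of 7.38 TPM, Pf4 of platelets at 6.56, Vsig4 of liver macrophages at 5.25, the neutrophil markers Cxcr2 at 3.37 and Mpo at 1.25, Cd8a of T cells at 2.20, the dendritic cell markers Siglech at 1.66 and Zbtb46 at 1.64, and Col1a1 of fibroblasts at 1.26. Endothelial markers stood at 3 of 10 in either table. The second quantification gave more counts to most genes, and the share of all genes it detected is not given here. Its 9 further markers are therefore not read as signs of those cell types.

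For each detected member the protein-coding gene with the most similar level over the 3 libraries was named, by Euclidean distance on log2(TPM + 1) over 9688 other detected genes. They were Pias3 for Scarb1 (distance 0.03), Plxnd1 for Msr1 (0.08), Ctbp1 for Marco (0.09), Agpat4 for Colec12 (0.10), Mrps15 for Cd36 (0.13), Cdk6 for Mrc1 (0.26) and Uba7 for Stab1 (0.57). Uba7, the nearest to Stab1, had 429, 553 and 390 TPM against 323, 724 and 413, so that no detected gene came as close to Stab1 as to the other members. Few detected genes lie at the level of Stab1, at percentile 99.1 or above, so its larger distance is not read as particular to it. With 3 libraries such likeness is a description of level alone.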

How the data were processed

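Each of the 3 libraries of the 1 group has a gene table and 2 transcript tables. Expected counts, TPM and posterior mean TPM with their bounds were deposited by the authors in gene and first transcript tables whose columns carry RSEM's names. Estimated counts and TPM were deposited in the other transcript table under kallisto's column names, per the file headers, and were summed per gene here. The notes deposited beside the files name mm10 and GENCODE M21. Aligner, program versions and strandedness are not stated in these sources, so overlapping and antisense genes are uncertain. Rows that name no gene of GENCODE M21 held 1.75%, 0.396% and 0.239% of expected counts in replicates 1, 2 and 3 and were left out.

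Levels were compared on log2(TPM + 1) by the exact sign-flip test (two-sided, 3 libraries). Expected counts were rounded for edgeR 4.0.16 (R 4.3.3; filterByExpr, TMM, estimateDisp with an intercept only), with DESeq2 1.42.0 as an alternative. On simulated counts the default spread estimate pulled genes of wide spread strongly towards the common value, and unshrunk values are given beside it. The rest used scipy 1.17.1, pandas 2.3.3, numpy 2.4.6, matplotlib 3.10.9 and Python 3.11.15. Promoters and proteins of the members are not used here. The members, gene lists, tests and alternatives were chosen with earlier results of these data known. Named genes are the 9 members and, of each list, the detected genes among its 4 highest by mean TPM (in the text, some of them). To these come the nearest gene to each detected member, and member transcripts with a mean share of at least 10% in either table. Of such transcripts, Scarb1-206, Colec12-201, Cd163-201, Cd163-202 and Olr1-201 are not described. Pparg, Arg1, Ly75, Mrc2, Scara5, marker genes at 0 counts or detected in the second table alone, overlapping genes, Scarb1-202 and Mir511 were named outside this rule, after their values were seen.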

Additional observations from a re-analysis of the deposited data

How the results depend on the processing

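No comparison of treatments, paired or not, was possible because there is only 1 group. The count of detected members stayed between 6 (TPM of at least 5) and 8 (posterior mean TPM), and was 7 in the other 6 alternatives. The median of log2(TPM + 1) over the members, 4.12 ± 0.27, was 4.82 in the second table, 4.41 over detected members only, 5.94 after rescaling to protein-coding genes and 6.35 with fixed lengths; the last 2 change the scale of every gene. Leaving out 1 library gave 4.01 to 4.27. Of 56 recomputed pair differences 44 moved by less than their SD, 9 by more, and 3 changed sign: Mrc1 over Marco was -0.16 ± 0.45 in the second table, and Cd163 over Olr1 was -1.0 ± 0.04 by posterior mean TPM and -0.37 ± 0.26 in the second table; the cause was not tested. The count of pairs beyond their spread in the original order was 6 in the second table and 7 in the other 6 alternatives, and Cd163 and Olr1 differed beyond their spread in the reverse order in the second table and by posterior mean TPM. The median BCV of the members, 0.211, ran from 0.159 to 0.245. The median share of the leading transcript over detected members, 47.2% ± 7.39 in the first table, was 58% ± 3 in the second table. The median noncoding share over detected members, 39.5% ± 5.9 in the first table, was 28.7% ± 7.65 in the second table and 29.4% ± 3.33 by expected counts. Fixed lengths, unshrunk BCV and the intron alternatives were added after the data were seen. With 3 libraries no test of a pair can pass 0.05, and Cd163, Olr1 and Colec12 are limited by counts.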
